A study of Rattus norvegicus with 119 samples.

Results

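The genes described here encode enzymes of mitochondrial fatty acid oxidation, ketone body use and fuel choice, measured in bladder urothelium of rats given pioglitazone or rosiglitazone. They are a list of 38 gene symbols. A gene was measured by its brightest probe on the array, 37 of the genes were on the array, and 36 of them were bright enough to be tested, out of 12713 genes tested in all. Acad8 was not among the named probes, and Acsl6 was too dim (mean log2 signal 4.99). The thiolases Acaa1a, Acaa1b and Acaa2 and the carnitine shuttle were left out of the list on purpose and are given only for comparison.

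Sprague-Dawley rats were dosed by mouth each day for 3, 28 or 90 days. They received methylcellulose vehicle, pioglitazone hydrochloride at 16 mg/kg/day (low dose) or 63 mg/kg/day (high dose), or rosiglitazone maleate at 10 mg/kg/day. Both drugs are thiazolidinediones, agonists of the nuclear receptor PPAR-gamma. A day after the last dose the urothelium was scraped from the opened bladder with a scalpel, and the RNA of each animal was put on its own array. The groups, set by treatment, sex and time, numbered 24 and held 4 or 5 arrays each, with 30 arrays of vehicle, 28 of each pioglitazone dose and 30 of rosiglitazone after 3 that the submitters marked as failing were left out. The labels used here give no age of the rats, and p-values measure the spread between these animals.

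Fatty acid oxidation begins when acyl-CoA synthetases join a fatty acid to coenzyme A. Inside the mitochondrion, acyl-CoA dehydrogenases, hydratases, hydroxyacyl-CoA dehydrogenases and thiolases shorten the chain in repeated rounds, and electron transfer flavoprotein passes the electrons on to the respiratory chain. In liver and muscle many of these genes are textbook targets of the PPAR receptors, which bind DNA together with RXR at a direct repeat of AGGTCA with a spacer of a single base, called DR1. Thioesterases free fatty acids from coenzyme A again, Pdk2 and Pdk4 hold back the entry of pyruvate, and ketone bodies serve as another fuel for mitochondria.

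The start regions of the genes were read from RefSeq (build GRCr8), where 36 of the 38 listed genes had an entry and Acadl and Decr1 did not. In the 250 bases before the gene start, both strands were searched for DR1, that is AGGTCA, any base and AGGTCA again. An exact match stood in 0.0508% of 33469 promoters and in 0 of the 36. With at most 1 mismatched letter, 0.368% of promoters had a match and 2 genes of the list did, Acadvl and Acot4. Their matches are shown with the bases around them, and the stretch of Acad9, the gene whose signal rose with each treatment, is shown because it lacks such a match. The capitals mark the closest stretch to DR1 (Acadvl on the strand printed, Acot4 on the opposite strand, Acad9 with 4 mismatched letters, which 74.5% of promoters equal or better).
Acadvl, chr10:55236706-55236742, minus strand: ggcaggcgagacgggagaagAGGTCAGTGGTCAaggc
Acot4, chr6:109399821-109399853, plus strand: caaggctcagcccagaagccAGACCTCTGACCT
Acad9, chr2:120871079-120871328, plus strand: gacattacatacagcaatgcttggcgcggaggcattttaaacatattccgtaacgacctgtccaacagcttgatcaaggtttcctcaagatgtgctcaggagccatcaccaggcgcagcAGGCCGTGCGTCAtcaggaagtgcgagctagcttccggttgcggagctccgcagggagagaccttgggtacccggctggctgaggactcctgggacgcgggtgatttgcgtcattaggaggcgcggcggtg

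The matches to DR1 in Acadvl and Acot4 begin 17 and 13 bases before the gene start. The half-site AGGTCA, which lies inside DR1, stood in 6 of the 36 genes with an entry (16.7%) and in 14.1% of all promoters. The estrogen-related receptor element TCAAGGTCA, which also holds the half-site, stood in 0 of the 36 and in 0.388% of all. The element of NRF1 (GCGCA, any base and GCGC), a regulator of mitochondrial genes, stood in Acad10, Acot7, Etfb and Etfdh (11.1%) and in 3.75% of all promoters. For each element, DR1 included, a listed gene counted if any of its promoter entries matched, while the share of all is per entry. The shares are therefore not counted alike, and a gene with several entries can raise the share of the list. These matches describe letters in a short window and say nothing of binding.

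Urothelial markers were bright on these arrays: the uroplakins Upk1a, Upk1b, Upk2 and Upk3a and the keratins Krt7 and Krt18 had mean log2 signals of 17.67, 17.80, 16.35, 18.02, 16.73 and 17.84. The mean of 14 urothelial markers lay between 13.26 and 15.05 over all arrays. Other tissue was present in uneven amounts: the mean of 11 smooth muscle markers ranged from 6.69 to 15.31 and that of 8 adipocyte markers from 5.61 to 12.59. Compared with vehicle, the smooth muscle mean differed by -0.49, 0.44 and -0.30 with the low and the high pioglitazone dose and rosiglitazone, and the adipocyte mean by -0.32, 0.61 and 0.12, with 0 of 11 and 0 of 8 markers called. The urothelial mean differed by 0.15, 0.03 and 0.09, where Krt19 rose with each treatment (0.43, 0.34 and 0.46) and Foxa1 fell with high-dose pioglitazone (-0.42). Of 13 leukocyte markers, 5, 9 and 6 fell, and the median over arrays of their mean was 9.44, 9.35 and 9.48 against 9.68 in vehicle. The part of adipocyte and leukocyte markers in the results was not tested. Of the 4 liver markers Alb, Apoa1 and Cps1 were below the filter, and Ttr was tested and rose by 1.34, 1.44 and 1.58. In a scraping, fewer cells of a type and less RNA per cell cannot be told apart. On 2 arrays (high-dose pioglitazone, female, day 3, replicate 3 and low-dose pioglitazone, female, day 28, replicate 5) the median correlation with the other arrays over genes was 0.798 and 0.854, and counts of calls and several differences are also given without them.

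Most of the oxidation genes differed little from vehicle. Each treatment was compared with the vehicle groups of the same sex and day, averaged over the 6 combinations, and a gene was called at a Benjamini-Hochberg adjusted p under 0.05 over all genes (limma). With low-dose pioglitazone 1 of the 36 genes was called (2.78%, against 2.84% of all genes tested), with high-dose pioglitazone 3 (8.33%, against 6.59%), and with rosiglitazone 1 (2.78%, against 5.62%). All of the called genes rose and 0 fell, while 1.6%, 2.71% and 2.5% of all genes rose and 1.23%, 3.88% and 3.12% fell. The shares of called genes are near or below the background of calls in either direction. Against the share of all genes that rose, they are 2.78% against 1.6%, 8.33% against 2.71% and 2.78% against 2.5%, from 1, 3 and 1 genes. The median difference of the 36 genes was 0.08 on the log2 scale with each treatment, against 0.013, -0.0064 and -5e-04 for all genes, and 26, 23 and 29 of the 36 lay above 0 (72.2%, 63.9% and 80.6%, against 53.6%, 48.3% and 49.9% of all genes). The 3 treatments share the vehicle arrays, so their values are not independent. Without the 2 arrays of low correlation, 3, 4 and 3 of the 36 were called (5.25%, 6.54% and 9.42% of all genes). The 95% confidence interval stayed within 1.5-fold in either direction for 32, 32 and 33 of the 36.

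**Figure D1:**
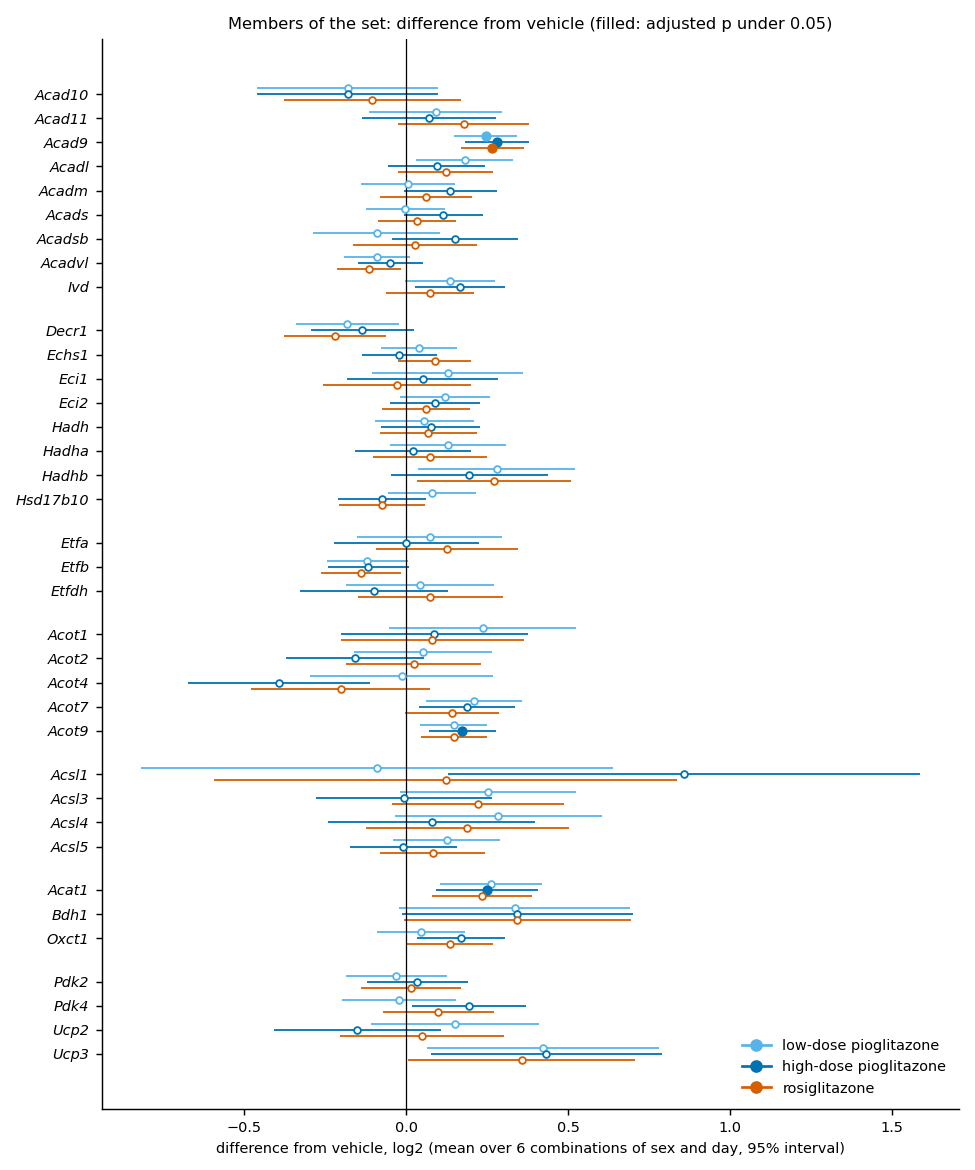
Difference from vehicle (log2, horizontal axis, mean over 6 combinations of sex and day) of the 36 tested genes, with 95% confidence intervals. Colours are the treatments and filled points passed the test. Acad9 is filled in each colour, Acot9 and Acat1 with high-dose pioglitazone only, and Acsl1 has the widest intervals.

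Acad9, an acyl-CoA dehydrogenase that also helps to assemble respiratory complex I, rose with each treatment. Its vehicle signal was 10.75 ± 0.15 on the log2 scale (SD within groups, n = 30), with a lowest, median and highest array of 10.32, 10.78 and 11.02. Low-dose pioglitazone gave 10.20, 10.99 and 11.60 (n = 28), high-dose pioglitazone 10.01, 11.12 and 11.49 (n = 28), and rosiglitazone 10.72, 10.96 and 11.41 (n = 30). The medians of the treated arrays stood near or above the top of the vehicle range and the ranges overlapped. The differences were 0.24 ± 0.05, 0.28 ± 0.05 and 0.27 ± 0.05 (log2, SE), or 1.18-fold, 1.21-fold and 1.2-fold, with adjusted p of 0.000728, 2.53e-05 and 5.02e-05. Group means were above vehicle in 6, 5 and 5 of the 6 combinations of sex and day. The lowest low-dose and high-dose values came from the 2 arrays of low correlation, and without them the differences were 0.27, 0.31 and 0.27.

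The rise of Acad9 could be seen array by array in several groups. In females at 28 days, the vehicle arrays read 10.70, 10.86, 10.70, 10.80 and 10.91, and the rosiglitazone arrays 11.22, 11.40, 11.41, 11.32 and 11.09. These groups did not overlap, and the difference was 0.49 (adjusted p 0.0276, with 0.362% of all genes called in that comparison). In females at 90 days, the vehicle arrays read 10.66, 10.63, 10.98, 10.70 and 10.50, and the high-dose pioglitazone arrays 11.12, 11.12, 11.26, 11.37 and 11.03. These did not overlap either, and the difference was 0.48 (adjusted p 0.0154, with 1.25% of all genes called). In males at 90 days, low-dose pioglitazone gave 11.28, 11.29, 11.37 and 11.60 over vehicle values of 10.92, 10.96, 10.88, 11.02 and 10.73, a difference of 0.49 that missed the threshold (adjusted p 0.0861). Rosiglitazone at the same sex and day gave 10.86, 10.90, 10.88, 10.76 and 11.02 and overlapped vehicle fully (-0.02).

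The 2 within-group calls of Acad9 rested on few animals. The call in females at 28 days with rosiglitazone was lost when the vehicle arrays numbered 1, 3 or 4 or the rosiglitazone arrays numbered 2, 3 or 4 were left out (adjusted p 0.0144 to 0.114 over 20 such fits), and with quantile normalisation (0.0642) or 75th percentile centring (0.0866). The call in females at 90 days with high-dose pioglitazone was lost without the vehicle arrays numbered 1 or 5 or the high-dose arrays numbered 4 (0.00623 to 0.0861). The 20 fits include those without arrays of an arm outside the comparison. Such fits cannot move its difference, only the estimate of spread and the adjusted p. The averaged calls of Acad9 were kept in each of the 20 fits. With the 3 arrays marked as failing included they were lost, as were the calls of Acot9, Acat1, Decr1 and Acad11, at 0.04, 0.10 and 0.27 (adjusted p 0.955, 0.795 and 0.822).

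Acot9, a mitochondrial acyl-CoA thioesterase, rose with high-dose pioglitazone. Its vehicle signal was 11.29 ± 0.18 (log2, SD within groups, n = 30; lowest, median and highest 10.92, 11.25 and 12.18), and the high-dose arrays had 10.86, 11.47 and 11.88 (n = 28). The highest vehicle array, a male at 3 days, stood above every high-dose array, so the ranges overlapped. The difference was 0.17 ± 0.05 (SE), or 1.13-fold (adjusted p 0.0272), with 5 of 6 combinations above vehicle. The differences of 0.15 ± 0.05 with low-dose pioglitazone and 0.15 ± 0.05 with rosiglitazone missed the threshold (adjusted p 0.105 and 0.0709). The high-dose call was lost without the vehicle arrays numbered 1 (0.13, adjusted p 0.190), or the high-dose arrays numbered 4 (0.0562) or 5 (0.0796).

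In females at 90 days Acot9 was higher with high-dose pioglitazone and rosiglitazone on every array. Vehicle arrays read 10.94, 11.03, 11.05, 10.92 and 11.10. High-dose pioglitazone arrays read 11.41, 11.46, 11.39, 11.75 and 11.48, and rosiglitazone arrays 11.39, 11.76, 11.48, 11.47 and 11.53. Each array of these 2 treatments was above each vehicle array, while the low-dose pioglitazone arrays, at 11.01, 11.46, 11.20, 11.51 and 11.38, overlapped them (difference 0.30, adjusted p 0.999). The high-dose and rosiglitazone differences were 0.49 (adjusted p 0.0244) and 0.52 (adjusted p 0.0110, with 2.45% of all genes called with rosiglitazone in that comparison). The rosiglitazone call was kept in each of the 20 fits without a replicate, and the high-dose call was lost without the vehicle arrays numbered 1 or 4 or the high-dose arrays numbered 4 (0.0115 to 0.0901). In males at 90 days the same differences were 0.22 and -0.05, neither called.

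Acat1, the mitochondrial acetoacetyl-CoA thiolase that works in ketone body use and isoleucine breakdown, rose with high-dose pioglitazone. Its vehicle signal was 10.32 ± 0.24 (log2, SD within groups, n = 30; lowest, median and highest 9.49, 10.36 and 10.81). High-dose pioglitazone gave 9.80, 10.62 and 11.43, low-dose pioglitazone 9.93, 10.64 and 11.36, and rosiglitazone 9.95, 10.52 and 11.20. The treated medians were higher and the ranges overlapped widely. On the low-dose and the high-dose array of low correlation Acat1 lay 0.66 and 0.86 above its group mean, and the highest low-dose value came from that low-dose array. The high-dose difference was 0.25 ± 0.08 (SE; 1.19-fold, adjusted p 0.0399), and those with low-dose pioglitazone and rosiglitazone of 0.26 ± 0.08 and 0.23 ± 0.08 missed the threshold (adjusted p 0.0505 and 0.0575). The high-dose call was lost in 8 of the 20 fits without a replicate, those without the vehicle arrays numbered 1 to 4, the low-dose arrays numbered 1, or the high-dose arrays numbered 2, 3 or 5 (adjusted p 0.0185 to 0.181), and without the 2 arrays of low correlation (0.20, adjusted p 0.0875), without the filter on dim genes (0.0527) and with array weights (0.0638).

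**Figure D2:**
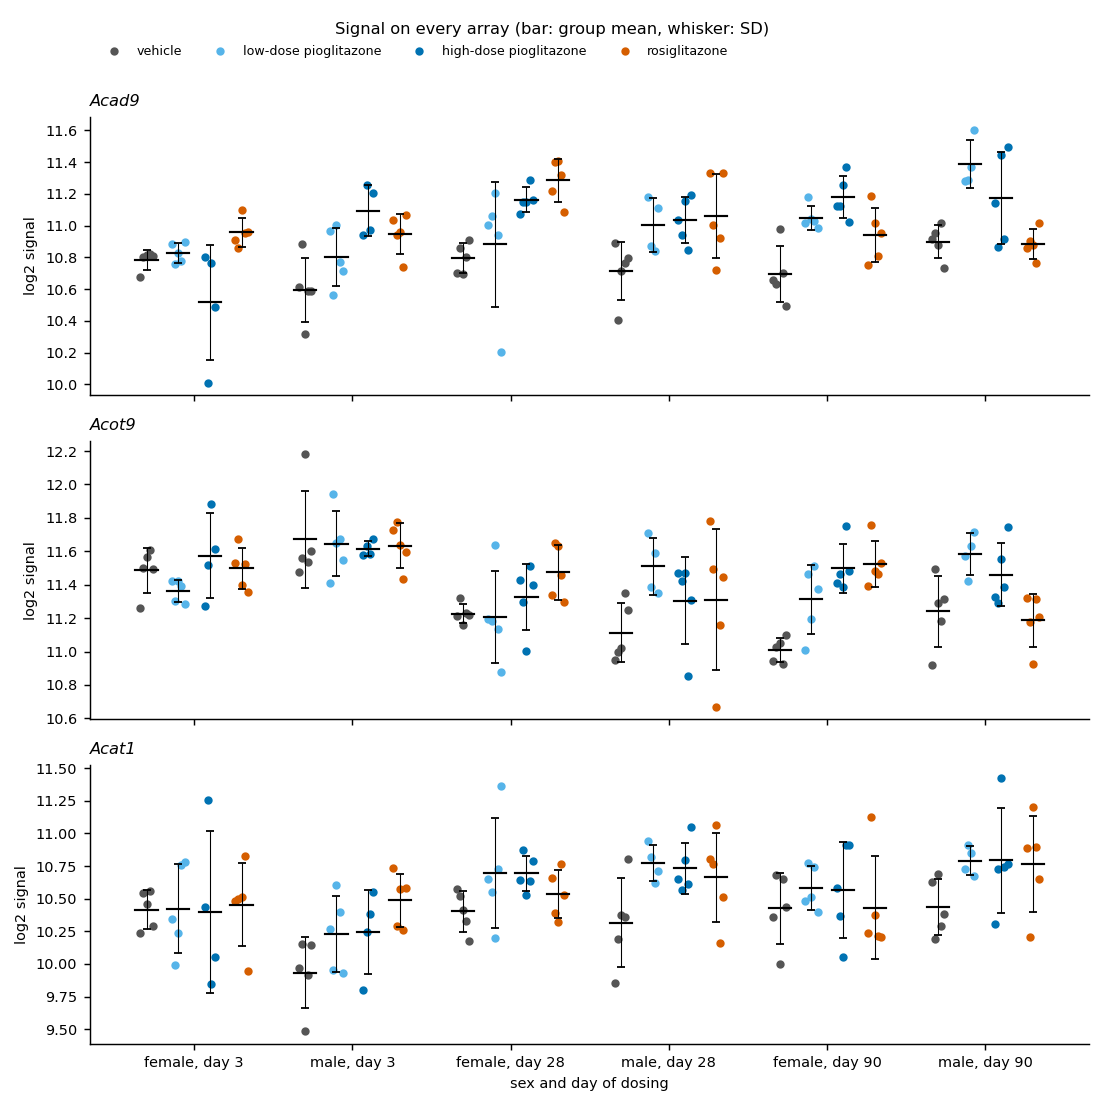
Log2 signal of Acad9, Acot9 and Acat1 on each array, by sex and day. Each point is an animal, bars are group means and whiskers SD. Group means of Acad9 are above vehicle except with high-dose pioglitazone in females at 3 days and rosiglitazone in males at 90 days, many of these groups overlap, and arrays of Acot9 stand apart from vehicle in females at 90 days with high-dose pioglitazone and rosiglitazone.

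Among the other acyl-CoA dehydrogenases, Acadm, Acadvl, Acadl and Acads, which take medium, very long, long and short chains, differed by 0.0049, -0.09, 0.18 and -0.0033 with low-dose pioglitazone, by 0.14, -0.05, 0.09 and 0.11 with the high dose and by 0.06, -0.12, 0.12 and 0.03 with rosiglitazone. None passed the test. The lowest differences of these dehydrogenases were those of the less studied Acad10 (-0.18 and -0.18 with the pioglitazone doses) and of Acadvl with rosiglitazone. Acadsb, of short branched chains, differed by -0.09, 0.15 and 0.03, Acad11 by 0.09, 0.07 and 0.18, and Ivd, which acts in leucine breakdown, by 0.14, 0.17 and 0.07.

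The enzymes that complete a round and handle double bonds had 0 of 8 calls with each treatment. Hadhb, the beta subunit of the trifunctional protein, was the highest, with 0.28 ± 0.12, 0.19 ± 0.12 and 0.27 ± 0.12 (log2, SE; adjusted p 0.197, 0.405 and 0.173). Its partner Hadha differed by 0.13, 0.02 and 0.07, and a second, slightly dimmer probe of Hadha by -0.32, -0.12 and -0.20, so its probes disagree in sign. Decr1, the dienoyl-CoA reductase needed for unsaturated fatty acids, was the lowest, with -0.18, -0.14 and -0.22 (adjusted p 0.205, 0.372 and 0.0810). In females at 28 days Decr1 read 11.65, 11.60, 11.61, 11.81 and 11.88 with vehicle and 10.67, 10.99, 10.76, 10.85 and 11.43 with rosiglitazone, without overlap. That difference of -0.77 was called (adjusted p 0.0406), and the call was lost without the filter on dim genes and in 11 of the 20 fits without a replicate (adjusted p 0.0144 to 0.141), those without any 1 of the vehicle arrays numbered 1 to 5, the rosiglitazone arrays numbered 1 to 4, the low-dose arrays numbered 3 or the high-dose arrays numbered 5. In males at 28 days the difference was 0.29 and missed the threshold. The differences of Hadh, Hsd17b10, Echs1, Eci1 and Eci2 lay between -0.07 and 0.13. Of the electron carriers Etfa, Etfb and Etfdh, 0 of 3 were called, and their differences lay between -0.14 (Etfb, rosiglitazone) and 0.13 (Etfa, rosiglitazone).

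The thioesterases and synthetases had within-group SDs of 0.20 (Acot9) to 1.42 (Acsl1) on the log2 scale. Acot4, a thioesterase with the second near match to DR1, had the lowest difference of the whole list, -0.39 ± 0.14 with high-dose pioglitazone (log2, SE; adjusted p 0.0799), and -0.01 and -0.20 with low-dose pioglitazone and rosiglitazone. Acot7, best known from brain, differed by 0.21, 0.19 and 0.14, and Acot1 and Acot2 by between -0.16 and 0.24. Of these only Acot9 was called. Acsl1, the main synthetase of fat and muscle and a known PPAR target, had the highest difference of the list, 0.86 ± 0.37 with high-dose pioglitazone (1.81-fold, adjusted p 0.163), against -0.09 ± 0.37 and 0.12 ± 0.36 with low-dose pioglitazone and rosiglitazone. Its vehicle arrays ran from 7.07 to 13.93, the high-dose arrays from 7.65 to 14.75 and the rosiglitazone arrays from 6.50 to 14.11, with medians of 8.17, 8.96 and 8.26. A few very bright arrays set the high ends. Acsl3, Acsl4 and Acsl5 differed by between -0.01 and 0.28, without a call.

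The remaining ketone and fuel genes did not pass the test. Bdh1, which interconverts acetoacetate and hydroxybutyrate, differed by 0.33 ± 0.18, 0.34 ± 0.18 and 0.34 ± 0.18 (log2, SE; adjusted p 0.301, 0.288 and 0.253). The 2 arrays of low correlation held the lowest values of their arms, 6.22 with the low and 6.0 with the high dose, and without them Bdh1 passed the test with both pioglitazone doses and Ucp3 with the high dose. Oxct1, which activates acetoacetate for use as fuel, differed by 0.05, 0.17 and 0.14. Ucp3, a mitochondrial carrier best known from muscle, had 0.42 ± 0.18, 0.43 ± 0.18 and 0.36 ± 0.18, about 1.34-fold, 1.35-fold and 1.28-fold (adjusted p 0.187, 0.149 and 0.235). Ucp2 gave 0.15, -0.15 and 0.05 and Pdk2 -0.03, 0.03 and 0.01. Pdk4, a textbook PPAR target in muscle, was dim (vehicle mean 5.52) and differed by -0.02 ± 0.09, 0.19 ± 0.09 and 0.10 ± 0.09 (adjusted p 0.914, 0.200 and 0.546). In females at 90 days Pdk4 was 6.25 ± 0.24 with rosiglitazone, 6.14 ± 0.39 with high-dose pioglitazone and 5.70 ± 0.20 with vehicle (SD, n = 5 each), and the rosiglitazone difference of 0.55 missed the threshold (adjusted p 0.157).

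Several pathway genes left out of the list rose. Of 33 such genes taken for comparison with earlier results of these data known, 28 were tested, and 6, 7 and 6 of them rose, against 0, 1 and 1 that fell, with the low and the high pioglitazone dose and rosiglitazone (median differences 0.15, 0.11 and 0.12). Of all genes tested, 1.6%, 2.71% and 2.5% rose and 1.23%, 3.88% and 3.12% fell. The mitochondrial thiolase Acaa2, which carries out the last step of each round for long and medium chains, rose by 0.45, 0.49 and 0.35. Crat, carnitine acetyltransferase, rose by 0.25, 0.40 and 0.37 (adjusted p 0.000363, 1.60e-09 and 1.25e-08), and the peroxisomal thiolase Acaa1a rose by 1.25, 1.44 and 1.32. The entry enzymes of the carnitine shuttle in mitochondria, Cpt1a and Cpt2, gave 0.05, -0.0022 and -0.06 and 0.14, 0.08 and 0.05, without a call. Their relative Cpt1c, best known from neurons, rose by 1.43, 1.68 and 1.64. Pparg, the receptor of both drugs, fell by 0.52 with high-dose pioglitazone and by 0.28 with rosiglitazone on the log2 scale.

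Within a single sex and day, the 18 comparisons gave 5 calls among the 36 genes: Acad9 and Acot9 with high-dose pioglitazone in females at 90 days, Acad9 and Decr1 with rosiglitazone in females at 28 days, and Acot9 with rosiglitazone in females at 90 days. At 3, 28 and 90 days, the share of all genes called was 0%, 0.0393% and 0.0393% in females and 0.0157%, 0.149% and 0.173% in males with low-dose pioglitazone. It was 8.46%, 0.0629% and 1.25% in females and 0.102%, 0.212% and 0.621% in males with the high dose, and 0.0708%, 0.362% and 2.45% in females and 0.0708%, 1.01% and 0.0315% in males with rosiglitazone. The comparison with most calls over all genes was high-dose pioglitazone in females at 3 days, where 8.46% of all genes but 0 of the 36 were called. An unadjusted p under 0.05 was reached by 9 of the 36 and by 27.4% of all genes, so the 9 do not stand out from the background. There the median of the 36 genes was -0.26, against -0.11 for all genes, and Acad9 gave -0.27, against 0.50 in high-dose males at 3 days. The group holds 1 of the 2 arrays of low correlation. Without those 2 arrays 0% of all genes were called there (limma; 10.4% at an unadjusted p under 0.05, and 0 of the 36), the medians were -0.06 and -0.03, and Acad9 gave -0.10.

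**Figure D3:**
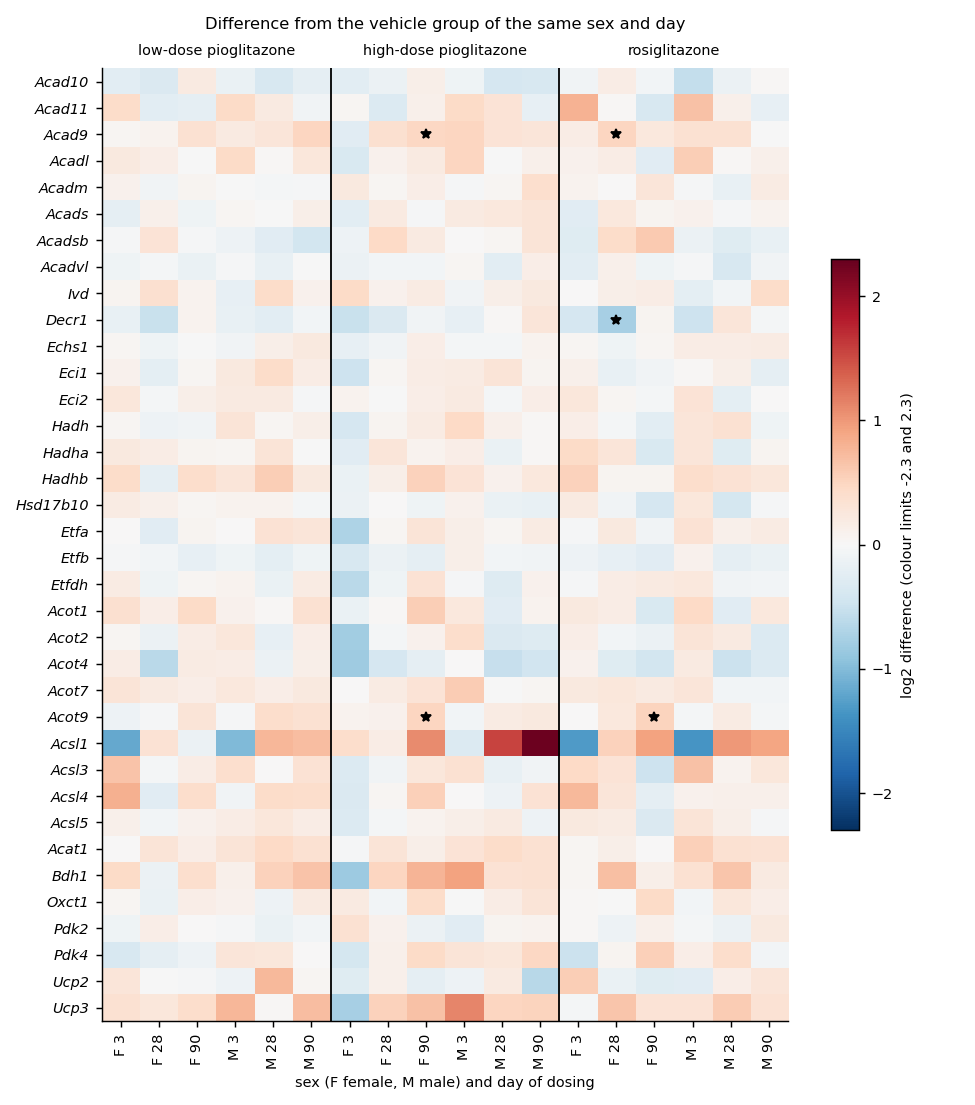
Difference from the vehicle group of the same sex and day (log2, colour, limits -2.3 and 2.3) for the 36 genes in 18 comparisons. Columns are sex and day within each treatment and stars mark adjusted p under 0.05. With all arrays in the fit the 5 stars lie in female columns, and the column of high-dose pioglitazone in females at 3 days is mostly blue.

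The 5 calls lay in female groups, but the test of the difference between sexes found none. At 90 days all genes were also called more often in females than in males. The shares were 1.25% against 0.621% with high-dose pioglitazone and 2.45% against 0.0315% with rosiglitazone. With rosiglitazone at 28 days they were 0.362% in females and 1.01% in males. The place of the 5 calls is therefore not particular to these genes. Without the 2 arrays of low correlation there were 7 calls, of which 2 lay in males: Acad9 with low-dose pioglitazone at 90 days (0.49, adjusted p 0.0104, with 0.244% of all genes called) and with the high dose at 3 days (0.50, adjusted p 0.0139, with 0.181%). Female minus male effect, averaged over days, had 0 calls among the 36 genes with each treatment (limma; 0% of all genes), and 1, 2 and 3 genes had an unadjusted p under 0.05. For Acot9 with rosiglitazone the female effect minus the male effect was 0.22 ± 0.10 (log2, SE; adjusted p 0.896), and for Acat1 it was -0.35 ± 0.16 (adjusted p 0.882). Over dosing time, Acad9 differed from vehicle at 3, 28 and 90 days by 0.13, 0.19 and 0.42 with low-dose pioglitazone, by 0.11, 0.34 and 0.38 with the high dose and by 0.26, 0.42 and 0.12 with rosiglitazone. Without the 2 arrays of low correlation the low-dose value at 28 days was 0.27 and the high-dose value at 3 days 0.20. Acot9 gave -0.07, 0.19 and 0.32, then 0.02, 0.15 and 0.35, and -0.01, 0.22 and 0.23. Its vehicle signal was lower at 28 and 90 days than at 3 days in both sexes, so these larger differences need not be a rise of the treated signal over time. The F test of change over time called 0 of the 36 genes with each treatment (0.00787%, 0.0157% and 0.0393% of all genes), with 3, 1 and 5 at an unadjusted p under 0.05. Acot9 had adjusted p of 0.999, 0.784 and 0.513.

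The high minus low pioglitazone contrast called 0 of the 36 genes and 0% of all genes, and 6 of the 36 had an unadjusted p under 0.05: Acsl1 (0.95), Acadsb (0.24), Pdk4 (0.22), Hsd17b10 (-0.15), Ucp2 (-0.30) and Acot4 (-0.38), each at an adjusted p of 0.563. The share of all genes at an unadjusted p under 0.05 is not given here, so the 6 are not set against a background. The same holds for the unadjusted counts between sexes, across days and between vehicle sexes. For Acad9 the doses differed by 0.03 (95% confidence interval -0.07 to 0.13). The doses of pioglitazone and rosiglitazone differ, so their values stand side by side here and were not tested against each other.

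Vehicle animals gave the other changes. Among the 36 genes, 2 changed over the 3 dosing times by the F test (5.56%, against 6.62% of all genes), Acad11 and Acot9. Acad11, an acyl-CoA dehydrogenase described in humans as acting on long chains, was 11.60 and 11.57 in vehicle females and males at 3 days, 12.38 and 12.07 at 28 days and 12.29 and 12.34 at 90 days. It rose by 0.64 ± 0.18 from 3 to 28 days (log2, SE; F test adjusted p 0.00599). Acot9 went the other way, with 11.49 and 11.67 at 3 days, 11.23 and 11.11 at 28 days and 11.01 and 11.24 at 90 days, and fell by 0.41 ± 0.09 from 3 to 28 days (F test adjusted p 0.000320). Over the same days the urothelial marker mean of the vehicle groups went from 14.24 and 14.25 at 3 days to 14.60 and 14.60 at 28 days, and the smooth muscle mean from 10.79 and 11.92 to 10.10 and 9.94 (females and males). With the urothelial and smooth muscle means as covariates Acad11 was no longer called (0.41, adjusted p 0.133) and Acot9 still was (-0.37, adjusted p 0.00323), and the Acad11 call was also lost without the vehicle arrays numbered 3 (0.59, adjusted p 0.0786). Acad11 differed from vehicle with rosiglitazone by 0.74 at 3 days, 0.07 at 28 days and -0.28 at 90 days (F test adjusted p 0.136). Vehicle females and males differed in 0 of the 36 genes (0.149% of all genes; 2 at an unadjusted p under 0.05).

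**Figure D4:**
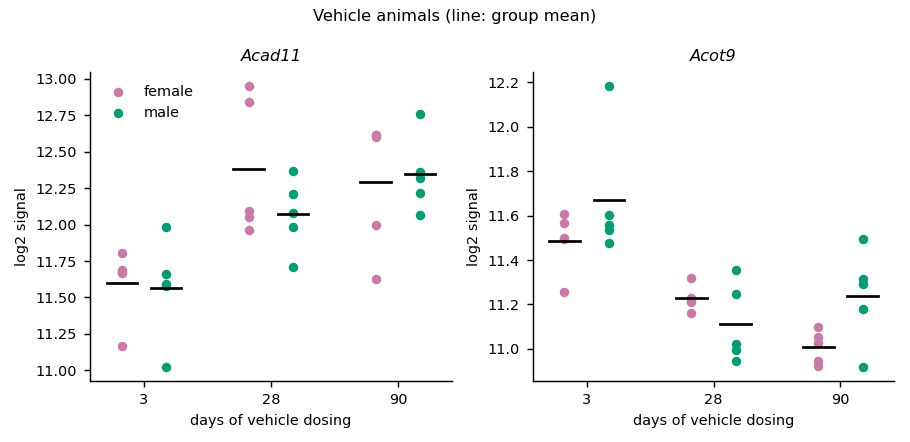
Log2 signal of Acad11 and Acot9 in vehicle animals after 3, 28 and 90 days of dosing. Each point is an animal, colours are sexes and lines are group means. Group means of Acad11 stand lower and those of Acot9 higher at 3 days than later, while single animals overlap between days. A male at 3 days reached 12.18 for Acot9.

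Many genes of the list were related to tissue markers from array to array. Each array's signal was taken as its deviation from the mean of its group, so that treatment, sex and day drop out, and set against the deviation of each marker mean over 116 arrays. P-values come from permutation within groups and were adjusted over 108 relations. With the urothelial mean, 23 genes were positively and 7 negatively related at an adjusted p under 0.05, with the smooth muscle mean 7 and 24, and with the adipocyte mean 7 and 18. The share of all genes related to these means was not computed, so the counts are not set against a background. Acsl1 was related to the adipocyte mean (Pearson r 0.93, Spearman rho 0.89, permutation p 1e-05 for both, the smallest the permutations can give, adjusted p 2.5e-05 and 2.4e-05, r 0.90 without the 2 farthest arrays) and to the smooth muscle mean (r 0.71, rho 0.79, the same permutation p, r 0.69 without the 2 farthest). On an array of low-dose males at 28 days (replicate 3) Acsl1 was 2.27 above its group mean with the adipocyte mean at -0.03 and the smooth muscle mean at 0.81. Acsl3 and Acadl were related to the urothelial mean (r 0.81 and 0.76, rho 0.73 and 0.71, the same permutation p, r 0.75 and 0.67 without the 2 farthest arrays). Acadm, Pdk2 and Oxct1 were related to the smooth muscle mean (r 0.57, 0.65 and 0.38, rho 0.47, 0.61 and 0.30, permutation p at most 0.00591, r 0.52, 0.64 and 0.31 without the 2 farthest) and, inversely, to the urothelial mean (r -0.62, -0.54 and -0.47, rho -0.56, -0.44 and -0.39, permutation p at most 0.00013, r -0.58, -0.44 and -0.42 without the 2 farthest). With the adipocyte mean they had r of 0.39, 0.43 and 0.37 (rho 0.27, 0.43 and 0.22, permutation p at most 0.0468, adjusted p at most 0.0549, r 0.25, 0.40 and 0.21 without the 2 farthest).

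Acad9 was related to the urothelial mean (r 0.52, rho 0.47) and, inversely, to the smooth muscle mean (r -0.58, rho -0.60; permutation p 1e-05 for each, r 0.50 and -0.57 without the 2 farthest arrays). It was also inversely related to the adipocyte mean (r -0.40, rho -0.44, permutation p 0.00014 and 2e-05, r -0.37 without the 2 farthest arrays). With the urothelial and smooth muscle means as covariates, an alternative added after the data had been seen, Acad9 differed from vehicle by 0.20, 0.29 and 0.24 (adjusted p 0.000677, 6.54e-08 and 4.64e-06) and stayed called with each treatment. The adipocyte mean was not among these covariates. Acot9 was not related to any of the 3 means at an adjusted p under 0.05 (r -0.09, -0.15 and -0.15, rho 0.01, -0.18 and -0.20; Pearson permutation p 0.436, 0.166 and 0.204). Its high-dose difference with the covariates was 0.19 (adjusted p 0.00568), and that of Acat1 0.26 (adjusted p 0.0168). For Acsl1 the part of adipocyte tissue in its high-dose difference was not tested.

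**Figure D5:**
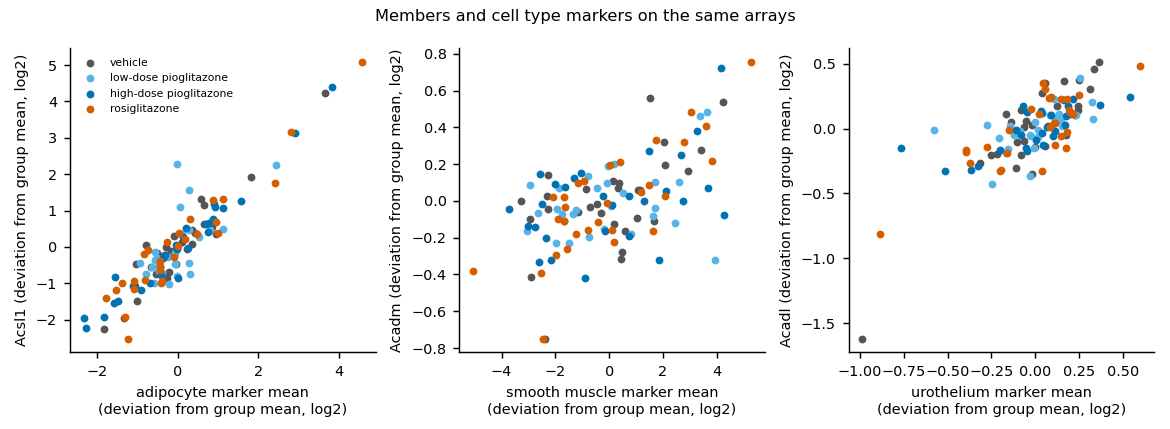
Deviation from the group mean (log2) of Acsl1, Acadm and Acadl on 116 arrays against the deviation of the adipocyte, smooth muscle and urothelial marker means. Each point is an array and colours are treatments. Acsl1 rises with the adipocyte mean, with an array of low-dose males at 28 days standing above the rest at an adipocyte deviation near 0, and a vehicle array at the lower left sets the low end of Acadl.

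Within groups the signals of the genes were also correlated with each other, given here as a description over 116 arrays on which 2 genes share the RNA and the array. Of 630 pairs, 32 had r above 0.7 and 19 below -0.5, with a median of 0.13. The highest were Hadhb with Etfa (0.85) and Hadhb with Eci1 (0.84), which join the trifunctional protein, electron transfer flavoprotein and an enoyl-CoA isomerase, and the subunits Hadha and Hadhb had 0.78. The lowest was Acsl3 with Pdk2 (-0.67). The 116 arrays include the 2 of low correlation. On the low-dose and the high-dose array of these, Hadhb deviated from its group mean by -1.05 and -0.84. Etfa deviated by -1.33 and -1.50 and Eci1 by -0.22 and -0.62. The part of these arrays and of tissue content in the correlations was not tested, and pairs of other genes were not computed.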

How the data were processed

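Cy3-labelled RNA of scraped rat urothelium was read on one-colour Agilent arrays, 1 animal each. The authors deposited log2 signals, normalised by a method not given in the sources used here. Per the submitters' processing notes, limma was among the tools. Array medians lay between 6.40 and 6.63, and depth has no meaning for arrays, where their number limits the precision. Symbols came from the platform table and were updated by RefSeq accession (17245 of 20369 named probes matched). Each gene took its probe of highest mean, and the dimmest 25% of genes (mean log2 under 5.26) were left out. Of 119 arrays, 3 that the labels mark as failing were dropped.

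A mean per group was fitted with limma 3.58.1 in R 4.3.3 (contrasts.fit, eBayes with trend), and p-values were adjusted by Benjamini-Hochberg over 12713 genes. SE and 95% intervals come from this fit. The fit was tested on simulated data. Tables and plots used Python 3.11.15, pandas 2.3.3, numpy 2.4.6 and matplotlib 3.10.9. Alternatives were another probe rule, other filters and scalings, array weights, no trend, a replicate block, included failing arrays and leaving out replicates. The genes and lists were chosen with earlier results of these data known. Genes called in an averaged or dose comparison, or in at least 2 comparisons within a sex and day, are given array by array; the others by their role group. Decr1 and the array values of Acsl1, Acad11 and Pdk4 were chosen for display after their values were seen. Same-numbered replicates were not treated as pairs (mean correlation of their deviations 0.0677, above 0.1 in 40 of 86 pairs). The mean varied between the 18 comparisons. It ran from -0.20 in low-dose males at 3 days (0.06 for other numbers) to 0.33 in high-dose males at 28 days (-0.06 for other numbers). A shared handling of some numbers cannot be told from these values.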

Additional observations from a re-analysis of the deposited data

Results flagged for a closer look

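For Acad9, Acot9, Acat1, Acad11, Decr1 and Acsl1 in 24 groups, 144 gene and group combinations were checked for an array far from the rest of its group by Dixon's test, which by chance picks about 1 in 20 groups, and 8 were picked. Acad9 was low in low-dose pioglitazone female day 28 replicate 5 (log2 signal 10.2, nearest array 10.94) and slightly low in vehicle female day 3 replicate 1 (10.67, nearest 10.8). Acot9 was high in high-dose pioglitazone female day 90 replicate 4 (11.75, nearest 11.48), low in high-dose pioglitazone male day 28 replicate 4 (10.85, nearest 11.31) and high in vehicle male day 3 replicate 3 (12.18, nearest 11.6). Acat1 was high in rosiglitazone female day 90 replicate 2 (11.12, nearest 10.37), and Acad11 was low in vehicle female day 3 replicate 1 (11.16, nearest 11.67). Acsl1 was high in low-dose pioglitazone female day 28 replicate 5 (10.39, nearest 7.77), the array that was also low for Acad9 and whose adipocyte and smooth muscle marker means were 2.45 and 3.93 above those of its group. The part of that tissue in the values of this array was not tested.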

How the results depend on the processing

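Counts of called genes among the 36 (or as many as each filter left) moved in both directions. With low-dose pioglitazone the count of 1 became 2 with the mean of all probes, with the dimmest 50% left out, with quantile normalisation and with 75th percentile centring, and with rosiglitazone 1 became 2 with the dimmest 50% left out. Including the 3 failing arrays gave 0, 0 and 0 for the averaged treatment comparisons, 18 over the comparisons within a sex and day and 0 across vehicle days, while the share of all genes called fell to 0.496%, 2.47% and 1.07% for the averaged comparisons. Array weights gave 9, 10 and 8 for the averaged comparisons (24.9%, 14.9% and 15.7% of all genes), 34 within a sex and day, 1 between sexes, 3 across days, 5 between doses, 2 between vehicle sexes and 5 across vehicle days. Chosen after seeing the data, leaving out the 2 arrays of low correlation gave 3 with low-dose pioglitazone, 3 with rosiglitazone and 4 across vehicle days, and the urothelial and smooth muscle means as covariates gave 5 with high-dose pioglitazone (11.6% of all genes), 5 with rosiglitazone (10.7%), 10 within a sex and day and 1 across vehicle days. The cause of these shifts was not tested. Counts in this section without a share of all genes beside them are not set against the background. Over the 20 fits without a replicate of an arm, the counts ranged from 1 to 2, 1 to 4 and 1 to 2 for the averaged comparisons, from 2 to 11 within a sex and day, from 0 to 1 across days and from 1 to 4 across vehicle days, and stayed at 0 between sexes, doses and vehicle sexes. The fit with the replicate number as a block gave the main counts again: 1, 3 and 1 for the averaged comparisons, 5 within a sex and day, 2 across vehicle days and 0 for the others. For single genes, 318 of the recomputed values kept their direction and call, 54 lost the call and 0 changed sign. These results were taken because they were called in the main fit, so they could keep or lose a call but not gain one. Fits without arrays of an arm outside the comparison could not change their sign. The authors' normalisation cannot be undone from the deposited values.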
